A study of Caenorhabditis elegans with 20 samples.

Results

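The transcript levels of wild-type L3 larvae were examined in the N2 RNA-seq libraries of the series, which are 2 of its 20 samples, over all 15568 genes that the deposited table lists. N2 is the reference laboratory strain of Caenorhabditis elegans, and both libraries carry the wild-type genotype with no mutation, transgene or added agent. Whole larvae in the third larval stage were used, so each library mixes the RNA of every tissue. They were raised at 20°C in liquid, after bleached embryos had hatched in M9 buffer for 24 to 42 h, and were cleaned on sucrose before freezing. mRNA libraries were made from total RNA. The labels number the libraries 1 and 2 and do not say whether they came from separate cultures, so the spread between them may be technical. The rest of the series, ChIP-seq and the mutant RNA-seq libraries, is not described here.

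Levels are given as RPKM, the reads of a gene per kilobase of its exon model, scaled to the reads of the whole library, so that long and short genes and deep and shallow libraries can be set side by side. The totals behind the RPKM were 18301926 reads in replicate 1 and 15109108 reads in replicate 2, of which the listed genes held 14124245 and 11624992. At this depth, 1 read on an exon model of median length was worth 0.0446 RPKM in replicate 1 and 0.0541 RPKM in replicate 2, and a gene without a read in a library may have had up to 3 reads' worth, that is 0.134 or 0.162 RPKM for such a model. This limit covers counting error only. Genes whose level cycles with the larval molts had been left out by the authors, and many collagen, protease and other cuticle genes are not among the listed ones. In bulk samples, fewer cells of a type and less RNA per cell cannot be told apart.

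The third larval stage lies between hatching and the reproductive adult. The body wall muscle, intestine, epidermis and nervous system are built and working, while the germ line is still dividing mitotically for the most part and has begun to enter meiosis. Sperm are made in the following stage and oocytes in the adult. A growing larva makes large amounts of ribosomes, contractile proteins and digestive enzymes, and it feeds on bacteria that the intestine breaks down in acidic compartments.

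Levels of the listed genes fell off steeply, with few genes at high levels and a long tail near 0. By the mean of both libraries, 83 genes reached at least 1000 RPKM, 641 lay between 100 and 1000 RPKM, 4710 between 10 and 100 RPKM, 3869 between 1 and 10 RPKM, 3975 above 0 and below 1 RPKM, and 2290 had no read in either library. The 83 highest genes were 0.533% of the listed genes and held 31.1% of the summed RPKM. The 641 genes of the next class held 34.7% and the 4710 genes of the middle class 30.1%. The 6265 genes below 1 RPKM together held 0.21%. The median listed gene was at 3.45 RPKM in replicate 1 and 3.39 RPKM in replicate 2. The upper quartile of the mean level was 16.9 RPKM and the lower quartile was 0.1 RPKM.

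A small set of transcripts made up much of the summed RPKM of the listed genes. The single highest gene held 0.978% of the summed RPKM, the 10 highest held 7.23%, the 100 highest held 34.3% and the 1000 highest held 70.9%. For the 100 highest genes of each library the share was 33.8% in replicate 1 and 34.8% in replicate 2. The 266 highest genes held 50% of the summed RPKM. At least 1 RPKM was reached in both libraries by 9143 genes, in replicate 1 alone by 175 and in replicate 2 alone by 149. Of the 2290 genes with no read in both, 1021 had no read in any RNA-seq library of the series. A read in replicate 1 alone was found for 794 genes and in replicate 2 alone for 568, and none of these exceeded 1.64 RPKM.

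**Figure D1:**
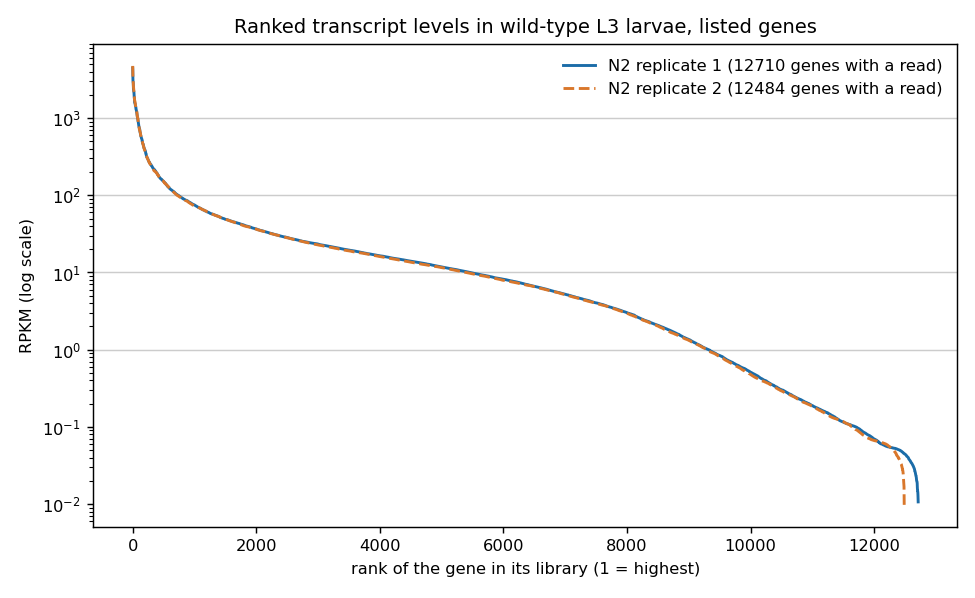
RPKM on a log axis against the rank of each listed gene within its own library, for N2 replicate 1 (solid line, 12710 genes with a read) and replicate 2 (dashed line, 12484 genes with a read); grey lines mark 1, 10, 100 and 1000 RPKM. The curves lie on each other down to about 0.1 RPKM and part only at the lowest levels, where the deeper replicate 1 reaches more genes.

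The top of the list was the protein synthesis machinery. Of the 20 highest genes, 17 encode cytosolic ribosomal proteins, and of the 50 highest 40 do. The highest gene was eef-1A.1, an elongation factor that brings aminoacyl-tRNAs to the ribosome, with 4450 RPKM in replicate 1 and 4741 RPKM in replicate 2. It was followed by the small subunit genes rps-25, with 4229 and 4187 RPKM, and rps-8, with 3518 and 3875 RPKM. The large subunit gene rpl-27 was at 3113 and 3325 RPKM. Among the 20, 19 were also within the 20 highest of each library taken alone, and 5 held the same rank in both.

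The next ranks were held by rps-9 with 2992 and 3421 RPKM and rpl-10L with 3001 and 3299 RPKM. In seventh place stood ahcy-1, which encodes the enzyme that clears S-adenosylhomocysteine, the by-product of methylation reactions. It was at 3435 RPKM in replicate 1 and 2797 RPKM in replicate 2, the widest gap between libraries among the 20. The ribosomal genes rps-3A (2868 and 3047 RPKM), rps-23 (2865 and 3006 RPKM) and rplp-0 (2839 and 2982 RPKM) closed the first 10. From rank 11 to rank 20 came rpl-4, rps-7, rps-4, rpl-14, rpl-7, rpl-39, rps-2, tct-1, rps-18 and rps-15. All of these lay between 2156 and 2580 RPKM in both libraries. Of them, tct-1, with 2229 and 2303 RPKM, encodes the translationally controlled tumour protein homologue and is the only one that is not a ribosomal protein gene.

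**Figure D2:**
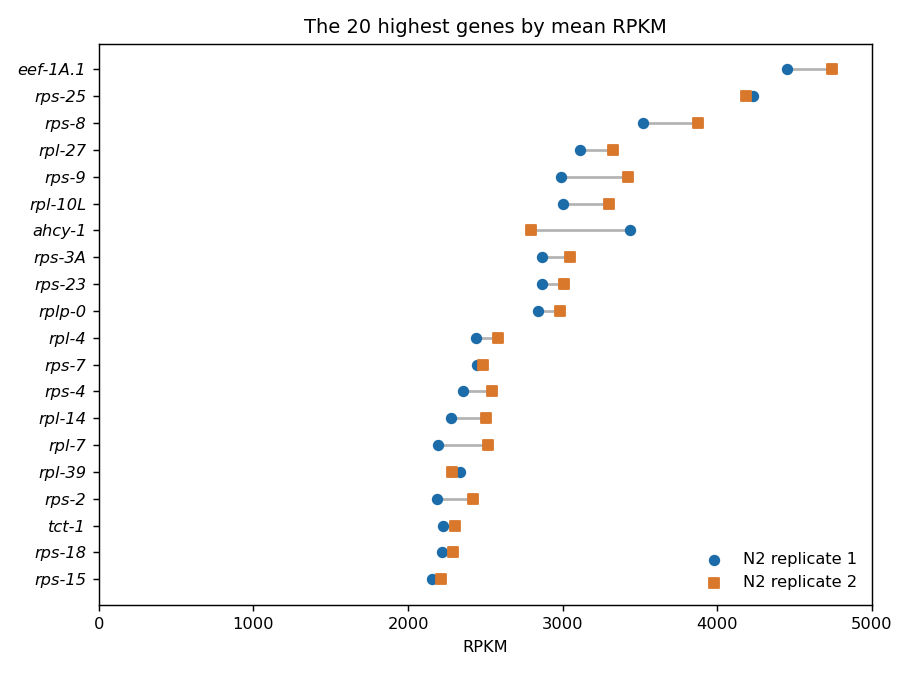
RPKM in N2 replicate 1 (circles) and replicate 2 (squares) of the 20 genes with the highest mean RPKM, ordered by the mean, with a grey line joining both values of a gene. The values run from 2156 RPKM to 4741 RPKM; ahcy-1 is the gene with the widest gap and one of the few with replicate 1 higher.

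Cytosolic ribosomal protein genes were high nearly without exception. Of 78 listed members, 77 exceeded 100 RPKM, against 4.65% of all listed genes. Their median was 1358 RPKM in replicate 1 and 1418 RPKM in replicate 2, and together they held 24.9% of the summed RPKM. The middle of the group was narrow, with quartiles at 792 and 2061 RPKM. The exception was rpl-42, with no read in replicate 1 and 0.128 RPKM, a single read, in replicate 2. How the counting treated reads that fit several gene copies is not given in the sources used here, so values of near-identical copies are uncertain throughout.

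The other translation genes lay well below the ribosome. The 37 initiation and elongation factor genes had a median of 94.0 RPKM, and 18 of them exceeded 100 RPKM. After eef-1A.1, the highest were eef-2, which moves the ribosome along the mRNA, with 1563 and 1651 RPKM, and eef-1G, a subunit of the exchange factor for elongation factor 1A, with 950 and 966 RPKM. The lowest was ife-5, a cap-binding protein of the eIF4E family, with 2.67 and 2.21 RPKM. The 32 aminoacyl-tRNA synthetase genes had a median of 52.8 RPKM and all exceeded 10 RPKM, from dars-1 (162 and 170 RPKM), sars-1 (140 and 147 RPKM) and pars-1 (109 and 106 RPKM) down to pars-2 (10.8 and 10.5 RPKM).

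Mitochondrial ribosomal protein genes formed one of the most even groups. All 68 listed members lay between 19.7 and 124 RPKM, with a median of 52.6 RPKM in replicate 1 and 52.3 RPKM in replicate 2. The highest were mrpl-12 (120 and 129 RPKM), mrpl-11 (124 and 111.7 RPKM) and mrps-33 (106 and 102 RPKM), and the lowest was mrps-10 (20.8 and 18.6 RPKM). The lowest cytosolic ribosomal protein gene other than rpl-42, rpl-37.1 with 322 and 326 RPKM, was above the highest mitochondrial one in both libraries.

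Genes of energy metabolism were the next high group, with a median of 213 RPKM over 90 genes that held 4.84% of the summed RPKM. The 9 ATP synthase genes, whose products make ATP from the proton gradient of the mitochondrial inner membrane, had a median of 404 RPKM. The catalytic core subunits were the highest, with atp-2 at 1587 and 1653 RPKM and atp-1 at 903 and 924 RPKM. Below them came atp-5 (814 and 805 RPKM), asb-2 (538 and 563 RPKM), atp-3 (394 and 414 RPKM), asg-2 (390 and 387 RPKM), hpo-18 (348 and 337 RPKM) and asg-1 (217 and 212 RPKM). The lowest, asb-1, a second gene for subunit b, was at 66.4 and 74.9 RPKM. The order of these 9 genes was the same in both libraries.

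Respiratory complex I, which feeds electrons from NADH into the chain, had 30 listed genes with a median of 211 RPKM, and 28 exceeded 100 RPKM. They ran from nuo-1 (392 and 393 RPKM), nuo-6 (388 and 378 RPKM) and ndub-10 (330 and 323 RPKM) down to nduf-2.2 (15.05 and 18.5 RPKM). The 19 genes of the TCA cycle had a median of 158 RPKM. Citrate synthase, cts-1, was the highest with 831 and 865 RPKM, followed by the malate dehydrogenase mdh-2 with 665 and 668 RPKM and the aconitase aco-2 with 268 and 285 RPKM, and sdha-2 was the lowest with 20.1 and 22.6 RPKM. The 15 glycolysis genes had a median of 121.95 RPKM in replicate 1 and 104.3 RPKM in replicate 2. The aldolase aldo-2 (563 and 502 RPKM), the enolase enol-1 (414 and 410 RPKM) and the second aldolase aldo-1 (405 and 415 RPKM) were the highest. The lowest, the phosphofructokinase gene pfk-1.2, had 0.0228 RPKM in replicate 1, a single read, and none in replicate 2.

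The vacuolar ATPase, a proton pump that acidifies lysosomes, the gut lumen and the excretory canal, had a median of 253 RPKM in replicate 1 and 243 RPKM in replicate 2 over 17 genes. Of these, 16 exceeded 100 RPKM, led by vha-8 (562 and 566 RPKM), vha-10 (545 and 476 RPKM) and vha-12 (388 and 357 RPKM). The remaining one, vha-18, was at 3.10 and 5.55 RPKM.

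Chaperonin and proteasome genes were high. The 8 genes of the cytosolic chaperonin CCT, a ring that folds actin and tubulin, lay within a span of less than 2-fold. They were cct-4 (232 and 221 RPKM), cct-5 (216 and 231 RPKM), cct-1 (205 and 205 RPKM), cct-2 (167 and 167 RPKM), cct-3 (165 and 157 RPKM), cct-7 (140 and 135 RPKM), cct-6 (129 and 130 RPKM) and cct-8 (128 and 125 RPKM). The 32 proteasome genes had a median of 108 RPKM, led by the core subunit genes pas-2 (205 and 189 RPKM), pas-3 (161 and 160 RPKM) and pbs-7 (167 and 154 RPKM). Only rpn-6.2, with 2.62 and 2.36 RPKM, fell below 10 RPKM.

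Heat shock protein genes spread over a wide range, from constitutive chaperones to genes known to be induced by heat. The 3 highest of the 14 listed were hsp-1, the constitutive cytosolic Hsp70, with 1453 and 1267 RPKM, hsp-3 of the endoplasmic reticulum with 732 and 700 RPKM, and hsp-6 of the mitochondrion with 466 and 426 RPKM. The lowest was hsp-16.20, a member of the small heat shock family that heat strongly induces, with 0.602 and 1.34 RPKM. Its relative hsp-16.21 was at 1.48 and 1.49 RPKM. Members of this family differed by about 3 orders of magnitude within the same larvae.

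Muscle and cytoskeleton genes were also prominent. The 27 listed body wall muscle genes had a median of 130 RPKM in replicate 1 and 142 RPKM in replicate 2 and held 1.86% of the summed RPKM. The heavy chain of the main body wall myosin, unc-54, was at 1175 and 1265 RPKM, the regulatory light chains mlc-1 and mlc-2 at 1154 and 1168 RPKM and at 1097 and 1053 RPKM. The lowest of the list was not a structural gene but hlh-1, the MyoD-like transcription factor of body wall muscle, with 7.83 and 6.62 RPKM.

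The 5 actin genes were all high, between 465 and 1526 RPKM. The largest values were those of act-1 (1426 and 1526 RPKM) and act-3 (1406 and 1517 RPKM), which are close copies, and act-2 was at 736 and 782 RPKM. The intestinal actin act-5, which builds the microvilli of the gut, was at 769 RPKM in replicate 1 and 651 RPKM in replicate 2, and act-4 was at 465 and 472 RPKM. Among 15 tubulin genes the median was 37.9 RPKM, with tbb-2 (576 and 592 RPKM), tba-2 (339 and 336 RPKM) and tbb-1 (309 and 299 RPKM) the highest and tba-6 (1.01 and 0.832 RPKM) the lowest.

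Digestive and metabolic genes of the intestine reached the level of the housekeeping groups, but only through some members of each family. The aspartyl proteases of the asp class, lysosomal and digestive enzymes, split into separate levels. Of the 15 listed genes, 7 lay between 197 and 1419 RPKM and the remaining 8 below 1 RPKM, with none in between. The highest were asp-6 (1584 and 1255 RPKM), asp-1 (1404 and 1339 RPKM) and asp-3 (1074 and 967 RPKM), and 3 of the 8 low ones had no read in either library. Lipid carriers of the lbp and far classes, by contrast, were all above 40 RPKM by their mean. They were far-1 (1183 and 1222 RPKM), far-2 (993 and 1007 RPKM), lbp-6 (650 and 692 RPKM), lbp-2 (216 and 225 RPKM), lbp-9 (211 and 206 RPKM), far-8 (111 and 125 RPKM), lbp-3 (76.0 and 74.6 RPKM), lbp-4 (50.0 and 38.6 RPKM) and far-6 (43.3 and 43.6 RPKM).

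Of the 8 listed fatty acid desaturases and elongases, which build polyunsaturated fatty acids, fat-2 was the highest with 479 and 533 RPKM. It was followed by elo-1 (296 and 291 RPKM), fat-1 (278 and 293 RPKM) and fat-3 (194 and 162 RPKM). The delta-9 desaturases fat-6 (39.9 and 62.9 RPKM) and fat-7 (24.8 and 42.2 RPKM) were lower and were both higher in replicate 2. The elongase genes elo-7 and elo-8 had no read in replicate 1 and 0.117 and 0.0633 RPKM in replicate 2. The 27 acyl-CoA dehydrogenase and synthetase genes had a median of 24.4 RPKM, led by acs-2, a mitochondrial acyl-CoA synthetase, with 113 RPKM in replicate 1 and 250 RPKM in replicate 2.

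Families of innate defence and detoxification were mixed. Saposin-like spp genes, some of which encode membrane-active antimicrobial peptides, had a median of 35.2 RPKM over 20 genes. The highest were spp-5 (629 and 613 RPKM), spp-14 (346 and 380 RPKM) and spp-17 (182 and 239 RPKM). The 13 lysozyme genes had a median of 1.83 RPKM but included ilys-5 (262 and 274 RPKM), lys-1 (268 and 260 RPKM) and lys-8 (202 and 175 RPKM). The UDP-glucuronosyltransferases (30 genes, median 11.3 RPKM), glutathione S-transferases (36 genes, median 6.82 RPKM) and cytochromes P450 (44 genes, median 0.707 RPKM) formed a descending series of detoxifying families. The highest glutathione S-transferase gene, gst-1, was at 187 and 172 RPKM. No listed cytochrome P450 gene, 44 of 80 in RefSeq, exceeded 27.2 RPKM by its mean.

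C-type lectins are secreted sugar-binding proteins of which many respond to pathogens, and 202 of their 264 genes in RefSeq were listed. Of these, 71 had no read in either library and 59 reached 1 RPKM, so that the median was 0.0908 RPKM. The 59 were 29.2% of the listed lectin genes, against 59.8% of all listed genes, of which 14.7% had no read. The highest, clec-63 with 563 and 464 RPKM, held 27.8% of the summed RPKM of the family, and clec-50 (215 and 259 RPKM) and clec-1 (145 and 156 RPKM) followed. The pals genes, a family named for a protein signature and known for its response to intracellular infection, had a median of 0.164 RPKM over 27 genes, with pals-17 (14.2 and 8.69 RPKM), pals-22 (9.39 and 7.96 RPKM) and pals-39 (2.96 and 2.86 RPKM) the highest.

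Nuclear and cell division genes made up the middle of the range. The 12 RNA polymerase II subunit genes had a median of 52.9 RPKM, from rpb-5 (93.3 and 96.3 RPKM), rpb-6 (85.2 and 88.3 RPKM) and rpb-8 (83.5 and 77.8 RPKM) to rpb-11 (20.9 and 17.3 RPKM). The 25 spliceosomal genes had a median of 40.5 RPKM, with snr-1 (129 and 133 RPKM), snr-2 (105 and 111 RPKM) and snr-6 (93.4 and 93.2 RPKM) the highest. The 26 nuclear pore genes had a median of 21.5 RPKM, and 25 of them exceeded 10 RPKM. The exception, npp-26, was at 0.0740 and 0.0896 RPKM.

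The MCM helicase, which unwinds DNA at replication origins as a ring of 6 different subunits, lay within less than 2-fold from its highest to its lowest gene. Its genes were mcm-7 (25.5 and 26.8 RPKM), mcm-4 (25.2 and 26.9 RPKM), mcm-5 (23.4 and 23.6 RPKM), mcm-2 (17.4 and 19.6 RPKM), mcm-6 (15.1 and 16.8 RPKM) and mcm-3 (14.8 and 16.2 RPKM). All 6 values were higher in replicate 2. Their median log2 ratio of replicate 2 to replicate 1 was 0.11. It was -0.02 over the 9303 genes with a mean of at least 1 RPKM, so more of those were higher in replicate 1. Cyclin and mitotic kinase genes were lower, with a median of 9.18 RPKM over 15 genes. They were led by cyb-3 (26.3 and 29.5 RPKM), cdk-1 (26.99 and 26.2 RPKM) and bub-1 (21.02 and 22.3 RPKM), and cyb-2.2 (1.5999 and 2.05 RPKM) was the lowest.

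The study's own subjects sat in the same middle range. DREAM is a complex of 8 subunits that represses cell cycle and germline genes. The histone chaperone lin-53, which also serves other chromatin complexes, was its most abundant transcript, with 51.8 and 54.2 RPKM. The others were lin-37 (13.4 and 13.4 RPKM), the Rb-like lin-35 (12.1 and 11.1 RPKM), dpl-1 (9.82 and 9.01 RPKM), efl-1 (8.79 and 10.0 RPKM), lin-54 (7.05 and 7.75 RPKM), lin-52 (7.34 and 6.73 RPKM) and lin-9 (5.26 and 5.84 RPKM). From dpl-1 down, neighbouring genes in this order were separated by less than the gap between the libraries in several cases. The H2A.Z gene htz-1 was at 78.5 and 81.3 RPKM, hcp-6 at 8.14 and 7.85 RPKM and polh-1 at 8.21 and 8.70 RPKM. For sqv-1, no value was analysed here.

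Of 83 histone genes in RefSeq, 22 were listed, with a median of 36.9 RPKM. The highest were his-37 (160 and 168 RPKM), his-35 (131 and 130 RPKM) and his-41 (130 and 123 RPKM). Replication-dependent histone mRNAs lack a poly(A) tail as a rule, many histone genes are near-identical copies, and the kit selects mRNA, so these values are not a measure of histone transcripts as a whole.

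Transcription factor families had medians below the 3.47 RPKM of all listed genes. The 224 listed nuclear hormone receptor genes, a greatly expanded family in nematodes, had a median of 2.199 RPKM, and 34 had no read. Of all 15568 listed genes, 14.7% had no read, 59.8% reached 1 RPKM and 5434 reached 10 RPKM. Of the 224, 135 reached 1 RPKM, a share of 60.3% near that of all genes, and 40 reached 10 RPKM. The highest was nhr-114, with 143 RPKM in replicate 1 and 85.4 RPKM in replicate 2, then nhr-97 (87.6 and 70.8 RPKM) and nhr-17 (68.6 and 43.0 RPKM), all higher in replicate 1. Homeobox genes of the ceh class had a median of 1.397 RPKM over 57 genes, led by ceh-38 (19.5 and 19.8 RPKM), ceh-44 (16.3 and 16.01 RPKM) and ceh-88 (14.9 and 12.1 RPKM).

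Of the Hox and heterochronic genes, which set position along the body and the timing of larval stages, 8 were listed. The heterochronic genes lin-41 (62.9 and 61.1 RPKM) and daf-12 (48.7 and 42.0 RPKM) were well above the Hox genes mab-5 (10.6 and 8.99 RPKM), ceh-13 (9.29 and 9.73 RPKM), lin-39 (8.81 and 7.89 RPKM), nob-1 (3.89 and 3.66 RPKM) and egl-5 (2.09 and 1.75 RPKM). The heterochronic gene hbl-1 was at 9.19 and 6.49 RPKM, within the range of the Hox genes.

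**Figure D3:**
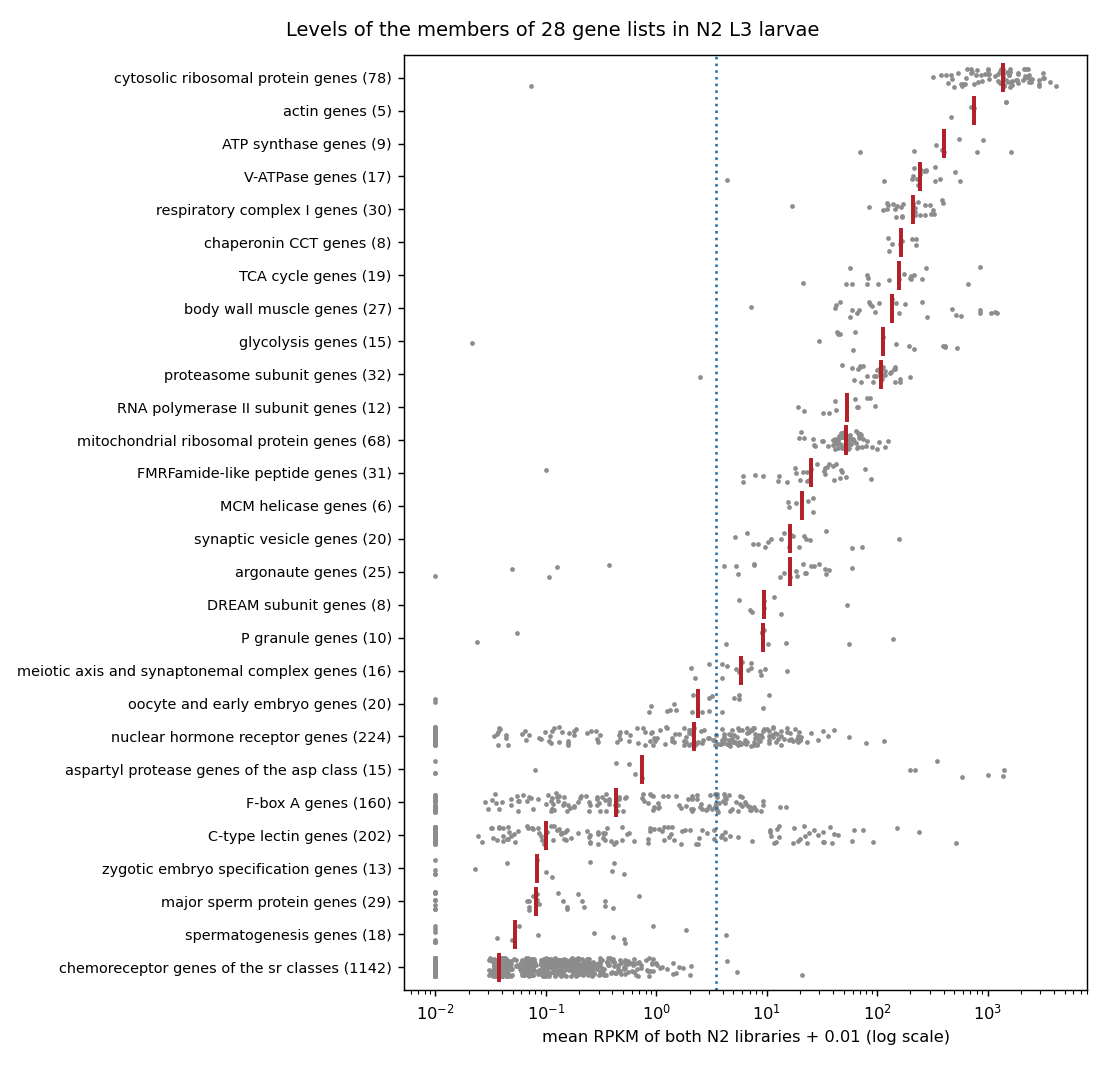
Mean RPKM of both N2 libraries, plus 0.01 so that genes without a read appear at the left edge, on a log axis for every listed member (grey points, scattered vertically for view) of 28 gene lists, with the number of members in brackets, the list's median as a red bar and the median of all listed genes as a dotted line. Cytosolic ribosomal protein genes lie farthest right apart from rpl-42, chaperonin, MCM and mitochondrial ribosomal protein genes form tight groups, the aspartyl proteases split into high and low members, and chemoreceptor genes pile up at the left with srv-1 as the far point.

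Pan-neuronal genes, used by nearly all neurons, had a median of 22.2 RPKM over 12 genes. They were led by snb-1, the synaptobrevin of synaptic vesicles (163 and 154 RPKM), the neuropeptide processing chaperone sbt-1 (118 and 132 RPKM) and the carboxypeptidase egl-21 (92.4 and 86.2 RPKM), and ric-19 (4.75 and 4.57 RPKM) was the lowest. Listed markers of transmitter identity had a median of 3.52 RPKM over 7 genes. Among them were the glutamate transporter eat-4 (6.50 and 6.55 RPKM), the GABA synthesis gene unc-25 (19.5 and 18.8 RPKM) and the serotonin synthesis gene tph-1 (0.857 and 1.01 RPKM). The remaining listed ones were cho-1 (7.77 and 7.23 RPKM), cat-2 (3.13 and 3.91 RPKM), cat-1 (2.48 and 2.59 RPKM) and unc-47 (2.12 and 1.95 RPKM).

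Neuropeptide genes of the flp and nlp classes lay in the middle range, with a few high members. All 31 FMRFamide-like peptide genes in RefSeq were listed, with a median of 25.8 RPKM in replicate 1 and 28.6 RPKM in replicate 2, and 26 of them exceeded 10 RPKM. The highest were flp-1 (85.9 and 88.5 RPKM), flp-9 (76.5 and 78.1 RPKM) and flp-18 (51.9998 and 51.6 RPKM), and the lowest was flp-23, with no read in replicate 1 and 0.179 RPKM in replicate 2. The 64 genes of the nlp class had a median of 13.2 RPKM, and 41.1% of their summed RPKM came from nlp-24 alone, with 967 RPKM in replicate 1 and 1274 RPKM in replicate 2. It was followed by nlp-29, an epidermal antimicrobial peptide gene, with 166 and 317 RPKM, and nlp-49, with 160 and 151 RPKM. Insulin-like peptide genes had a median of 1.45 RPKM over 29 genes, with ins-27 (45.1 and 38.3 RPKM), daf-28 (20.0 and 21.9 RPKM) and ins-17 (15.9 and 20.9 RPKM) the highest.

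Channel and receptor families were lower than the flp and nlp families. Median levels were 3.16 RPKM for 38 two-pore potassium channel genes, 1.21 RPKM for 20 acetylcholine receptor subunit genes, 1.04 RPKM for 46 ligand-gated channel genes and 0.622 RPKM for 31 receptor guanylate cyclase genes. The highest single member of these families was lgc-34, with 59.0 and 66.8 RPKM. The muscle channel twk-18 was at 28.7 RPKM in both libraries.

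Chemoreceptor genes of the sr classes, the largest gene family of the animal, were close to silent in whole larvae. These G protein-coupled receptors are mostly expressed in a few sensory neurons each. Of 1142 listed genes, 480 had no read in either library, 648 lay above 0 and below 1 RPKM and 14 reached 1 RPKM. The 14 were 1.23% of the family, against 59.8% of all listed genes, of which 14.7% had no read. All 1142 together summed to 129 RPKM in replicate 1 and 142 RPKM in replicate 2, less than nlp-29 alone in either library. The list is not limited to protein-coding genes, since RefSeq marks srbc-15 in it as a pseudogene. Levels above 3 RPKM were found for srv-1 (20.5 and 20.97 RPKM), srbc-15 (3.17 and 7.61 RPKM) and srj-14 (4.48 and 4.17 RPKM). A level of this kind averages over all cells, so it gives no level for the few cells that may express a receptor.

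Several other large families lay at the bottom. Of 169 F-box B and C genes in RefSeq, adaptors of ubiquitin ligases, 149 were listed. Of the 149, 90 had no read, against 14.7% of all listed genes, and the median was 0 RPKM. A few of them stood above the rest at nearly one level. These were fbxc-3 (10.96 and 13.5 RPKM), fbxc-4 (10.8 and 12.97 RPKM), fbxc-2 (9.64 and 13.7 RPKM), fbxc-1 (10.03 and 12.97 RPKM) and fbxc-5 (10.5 and 12.1 RPKM). Of these, fbxc-1, fbxc-2, fbxc-4 and fbxc-5, have exon models of the same length, 1128 bases, and their levels cannot be taken as independent if reads fit several copies. F-box A genes were somewhat higher, with a median of 0.417 RPKM over 160 genes, and so were the MATH and BATH adaptors, with a median of 1.13 RPKM over 71.

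Major sperm protein, yolk and embryonic fate genes were near 0. Over all listed genes, 59.8% reached 1 RPKM and 14.7% had no read. Of the 29 listed major sperm protein genes, which encode the motor protein of nematode sperm, none reached 1 RPKM and 9 had no read. The highest was msp-31, with 0.854 and 0.517 RPKM. The list of spermatogenesis genes, which holds only some of the spe genes, had a median of 0.0430 RPKM over 18 genes, with spe-15 (4.85 and 3.72 RPKM), spe-4 (2.13 and 1.57 RPKM) and spe-44 (0.972 and 0.893 RPKM) the highest. Over all 30 listed spe genes the median was 0.234 RPKM, 6 reached 1 RPKM, and the highest was spe-48 (17.8 and 16.5 RPKM). Yolk proteins are made by the adult intestine, and 2 of their 6 genes in RefSeq were listed. Both, vit-1 (0.618 and 0.660 RPKM) and vit-2 (0.109 and 0.0789 RPKM), were low. The other listed adult markers, all expressed in oocytes, were cpg-2 (7.34 and 11.3 RPKM), rme-2 (2.32 and 2.85 RPKM) and oma-2 (1.98 and 2.1995 RPKM). Of 13 genes that specify cell fates in the embryo, none reached 1 RPKM. The highest of the 13 were nos-2 (0.677 and 0.313 RPKM), ref-2 (0.672 and 0.131 RPKM) and med-2 (0.520 and 0.252 RPKM).

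Germ cell genes were present at intermediate levels. P granules, the RNA-rich bodies of germ cells, were represented by glh-1 (133 and 147 RPKM) and pgl-1 (53.5 and 57.5 RPKM). The others on the list were glh-2 (14.1 and 15.99 RPKM), pgl-3 (9.65 and 10.7 RPKM), deps-1 (9.19 and 9.60 RPKM), pgl-2 (9.02 and 9.11 RPKM), glh-4 (8.27 and 9.69 RPKM) and glh-3 (3.94 and 4.54 RPKM). The embryonic P granule genes meg-1, with no read in replicate 1 and 0.0280 RPKM in replicate 2, and meg-2, with 0.0194 and 0.0704 RPKM, were near 0. The 8 genes of at least 1 RPKM were all higher in replicate 2, while meg-1 and meg-2 had too few reads to give a direction. Over all 10 the median log2 ratio was 0.14. It was -0.02 over the 9303 genes with a mean of at least 1 RPKM, so more of those were higher in replicate 1.

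The 16 meiotic axis and synaptonemal complex genes had a median of 5.81 RPKM, and all 16 exceeded 2 RPKM by their mean. They ran from htp-1 (13.7 and 16.5 RPKM), syp-1 (9.28 and 9.84 RPKM) and htp-3 (9.03 and 8.71 RPKM) to spo-11, the topoisomerase-like protein that breaks DNA to start recombination (2.12 and 1.96 RPKM). Oocyte and early embryo genes had a median of 2.16 RPKM in replicate 1 and 2.53 RPKM in replicate 2 over 20 genes, led by spn-4 (9.63 and 11.5 RPKM), cpg-2 (7.34 and 11.3 RPKM) and pie-1 (5.84 and 5.44 RPKM). Argonaute genes, which bind small RNAs and many of which act in the germ line, had a median of 16.2 RPKM over 25 genes. The highest were ppw-2 (57.0 and 60.9 RPKM), the piRNA-binding prg-1 (34.98 and 38.2 RPKM) and csr-1 (35.1 and 34.2 RPKM).

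The labelled tissue and stage were set against markers. Intestinal markers were led by asp-1 and act-5, followed by the apical pump subunit vha-6 (292 and 268 RPKM), the peptide transporter pept-1 (129 and 114 RPKM), ges-1 (26.9 and 26.9 RPKM), the endodermal GATA factor elt-2 (13.9 and 12.2 RPKM) and pgp-3 (10.9 and 11.3 RPKM). Coelomocyte markers cup-4 (14.4 and 12.8 RPKM), lgc-26 (12.2 and 11.7 RPKM) and unc-122 (5.53 and 5.27 RPKM) were detected in both libraries. So were the excretory cell markers exc-4 (21.99 and 21.7 RPKM), glt-3 (10.6 and 10.3 RPKM) and clh-3 (3.44 and 3.35 RPKM). The remaining member of that list, vha-8 (562 and 566 RPKM), held 94.0% of its summed RPKM. It is one of the V-ATPase genes described above, a pump not limited to the excretory canal, so its level does not mark that cell. The epidermal factors lin-26 (20.5 and 16.8 RPKM) and elt-1 (5.49 and 6.49 RPKM) and the pharyngeal factors pha-4 (17.2 and 17.9 RPKM), ceh-22 (4.25 and 2.90 RPKM) and hlh-6 (1.91 and 1.16 RPKM) were the only listed markers of those tissues.

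Glial markers ranged from vap-1 (14.6 and 14.5 RPKM) through fig-1 (5.79 and 5.82 RPKM), kcc-3 (4.36 and 5.21 RPKM), lin-48 (1.46 and 2.43 RPKM) and hlh-17 (0.420 and 0.127 RPKM) to ver-1, with a single read in replicate 1 and none in replicate 2. Somatic gonad markers were low, with lim-7 (4.74 and 5.06 RPKM), lag-2 (2.21 and 2.14 RPKM), fkh-6 (0.843 and 1.43 RPKM), inx-8 (0.826 and 0.732 RPKM) and ehn-3 (0.0693 and 0.168 RPKM). Of the markers of dauer and starved larvae, dct-16 was at 278 and 252 RPKM, while hsp-12.6 (1.95 and 2.91 RPKM), sod-3 (0.394 and 0.238 RPKM) and cut-1 (0.114 RPKM and no read) were low.

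Symbols that share a prefix gave a second survey, over the 139 families with at least 10 listed genes. Of these, 6 had a median of at least 100 RPKM, 44 between 10 and 100 RPKM, 38 between 1 and 10 RPKM and 51 below 1 RPKM, of which 8 had a median of 0 RPKM. The highest were rps (29 genes, median 1586 RPKM), rpl (44 genes, median 1297 RPKM), vha, nspc (11 genes, median 153 RPKM), cox (14 genes, median 126 RPKM) and hsp. The nspc genes, which encode small peptides of the nematode-specific group c and whose name gives no function, lay between 55.5 and 251 RPKM. All 11 were higher in replicate 2, with a median log2 ratio of 0.23. It was -0.02 over the 9303 genes with a mean of at least 1 RPKM, so more of those were higher in replicate 1.

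In 7 of the 51 low families, at least 1 member exceeded 100 RPKM. The highest of these members was srlf-1, with 1439 and 1712 RPKM, which held 90.6% of the summed RPKM of 20 srlf genes whose median was 0.192 RPKM. In the sdz family of 32 genes, sdz-24 (100.1 and 100.1 RPKM) held 96.8%, and in the fipr family of 15 genes, fipr-6 (146 and 168 RPKM) held 89.2%. The neprilysin-like nep-17 (216 and 192 RPKM) held 45.2% of its 23 genes. In the SCP-like scl family the pattern was the same at a lower level, where scl-2 (72.2 and 71.9 RPKM) held 99.1%. Of its 19 genes, 13 had no read, against 14.7% of all listed genes.

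The same contrast was seen between related genes with one function. The pairs given here were chosen after their values were seen and are a description. The gene eef-1A.1 exceeded eef-1A.2 (471 and 463 RPKM) by 9.44-fold in replicate 1 and 10.2-fold in replicate 2. The ATP synthase gene asb-2 exceeded asb-1 by 8.11- and 7.52-fold, and the succinate dehydrogenase gene sdha-1 (171 and 180 RPKM) exceeded sdha-2 by 8.498- and 7.94-fold. The proteasome gene rpn-6.1 (68.4 and 66.9 RPKM) exceeded rpn-6.2 by 26.1- and 28.3-fold. The ratios of the libraries lay close to each other for these pairs, while that of the mitochondrial superoxide dismutase sod-2 (124 and 129 RPKM) to sod-3, 315- and 540-fold, rested on the few reads of sod-3.

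Other pairs had a silent or nearly silent member. The phosphofructokinase pfk-1.1 was at 62.8 and 64.2 RPKM beside the single read of pfk-1.2. The cytosolic superoxide dismutase sod-1 was at 222 and 206 RPKM beside sod-5, which had no read. The H3.3-like histone gene his-71 was at 97.8 and 100.2 RPKM beside his-70, with 0.135 RPKM, a single read, in replicate 1 and none in replicate 2. The smallest ratio was that of the ribosomal stalk genes rplp-2.1 (1423 and 1400 RPKM) and rplp-2.2 (685 and 720 RPKM), with 2.08- and 1.95-fold.

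**Figure D4:**
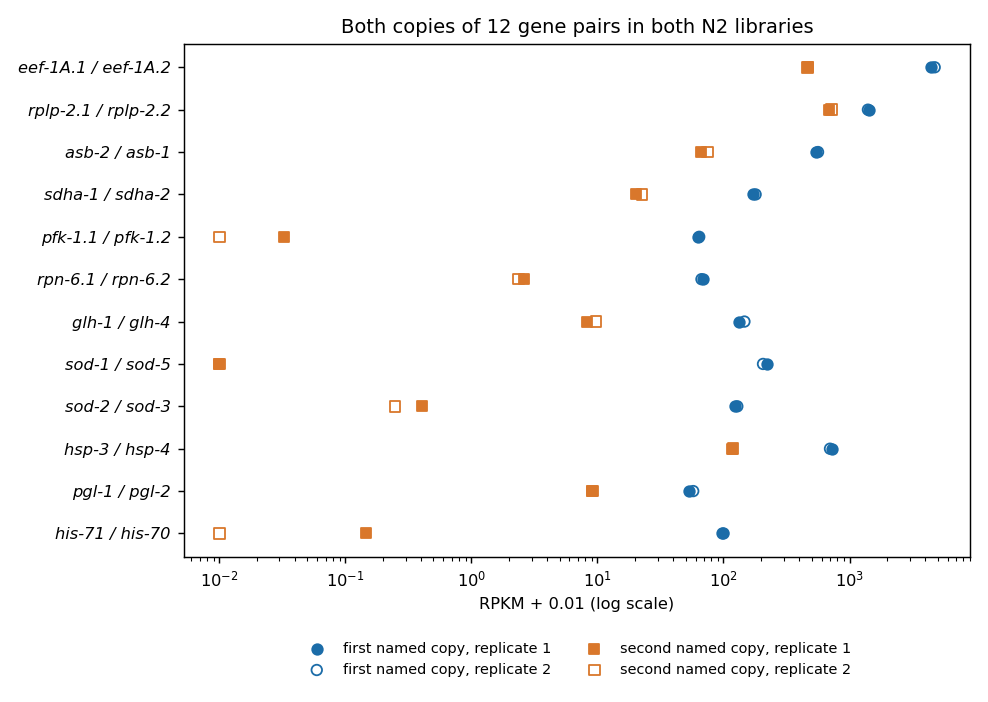
RPKM plus 0.01 on a log axis for both members of 12 gene pairs in N2 replicate 1 (filled) and replicate 2 (open), with the first named member in blue circles and the second in orange squares; points at the left edge are genes without a read. In every pair the first member is higher in both libraries, from about 2-fold for rplp-2.1 and rplp-2.2 to pairs such as sod-1 and sod-5 in which the second member had no read.

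Pseudogenes were rare at high levels, and few ncRNA genes were listed. Of 491 listed pseudogenes, 114 reached 1 RPKM, 14 reached 10 RPKM and 163 had no read. Their median was 0.0656 RPKM, against 3.93 RPKM for 14891 protein-coding genes. At least 1 RPKM was reached by 23.2% of the pseudogenes and 61.2% of the protein-coding genes. Among these 491, Y73B3A.18 was the only one above 100 RPKM, with 220 and 210 RPKM, and among 7 listed ncRNA genes W05H9.3 was the only one, with 144 and 154 RPKM. Genes known only by a sequence name were less frequent at the top, making up 3.61% of the class of at least 1000 RPKM, 14.98% of the next class, 30.1% of the class from 10 to 100 RPKM and 52.5% of the genes without a read. The 3 in the highest class were Y82E9BR.3 (1106 and 1097 RPKM), F46H5.3 (1056 and 1054 RPKM) and R53.4 (997 and 1099 RPKM).

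RPKM and reads ordered some genes differently, since RPKM divides by the length of the exon model. The median model length was 1021 bases in the class of at least 1000 RPKM and 1676 bases in the class from 10 to 100 RPKM. It was 1029 bases above 0 and below 1 RPKM and 919 bases for genes without a read. These lengths were recovered from the reads and can be too low for genes with few reads. For genes without a read in N2 they came from the mutant RNA-seq libraries, where these held a read. By reads, unc-54 was second with 144477 and 128352 reads, against rank 65 by RPKM. The adenine nucleotide carrier ant-1.1 was rank 7 by reads with 88799 and 76691 and rank 174 by RPKM with 432 and 452 RPKM, on an exon model of 11241 bases. The actin act-4 had more reads, 57000 and 47770, than act-1, 50741 and 44830, yet a lower RPKM on a model of 6694 bases against 1944. For fat-6, the model was 11958 bases against 1123 bases for fat-7, so that 8737 and 11361 reads gave 39.9 and 62.9 RPKM, beside 24.8 and 42.2 RPKM that fat-7 reached with 510 and 716 reads. The levels of ant-1.1, act-4 and fat-6 depend on whether the transcripts span the whole model, which was not tested.

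Both libraries gave nearly the same levels. Over the 9303 genes with a mean of at least 1 RPKM, the log2 ratio of replicate 2 to replicate 1, taken on log2(RPKM + 0.5), had a median of -0.02 and an SD of 0.25. On that scale Pearson's r was 0.991 and Spearman's rho 0.991, across genes, which are not independent replicates. On the same scale, 80.2% of these genes lay within 1.2-fold between the libraries, and 52, or 0.559%, were over 2-fold apart. Replicate 2 was higher in 30 of the 52, 0.322% of the genes compared, and replicate 1 in 22, or 0.236%.

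The spread narrowed with the level. The SD of the log2 ratio was 0.32 for genes from 1 to 10 RPKM, 0.19 from 10 to 100 RPKM, 0.15 from 100 to 1000 RPKM and 0.10 for the 83 genes of at least 1000 RPKM. Counting error alone would give an SD of 0.23, 0.09, 0.04 and 0.01 in these classes, so the measured spread exceeded it in each. One gene of at least 100 RPKM, acs-2, was over 2-fold apart, and 8 of at least 10 RPKM were.

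The genes that differed most among those of at least 10 RPKM were few and mostly of the middle range. Higher in replicate 2 were ZK218.7 (2.80 and 18.8 RPKM), the sugar transporter gene swt-3 (10.0 and 33.2 RPKM), T05B4.9 (12.05 and 29.1 RPKM), acs-2, cyp-33A1 (17.2 and 37.2 RPKM), F54B8.4 (6.67 and 14.2 RPKM), nlp-29 and C17H12.8 (33.3 and 62.0 RPKM). Higher in replicate 1 were F09C8.1 (16.8 and 5.96 RPKM), C50F7.5 (28.1 and 12.5 RPKM), clec-42 (16.3 and 8.15 RPKM), the methionine sulfoxide reductase gene msra-1 (93.5 and 50.2 RPKM), cyp-33C8 (16.2 and 8.52 RPKM), clec-218 (30.5 and 17.5 RPKM), F22D6.15 (13.6 and 7.72 RPKM) and B0205.13 (34.1 and 19.7 RPKM).

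**Figure D5:**
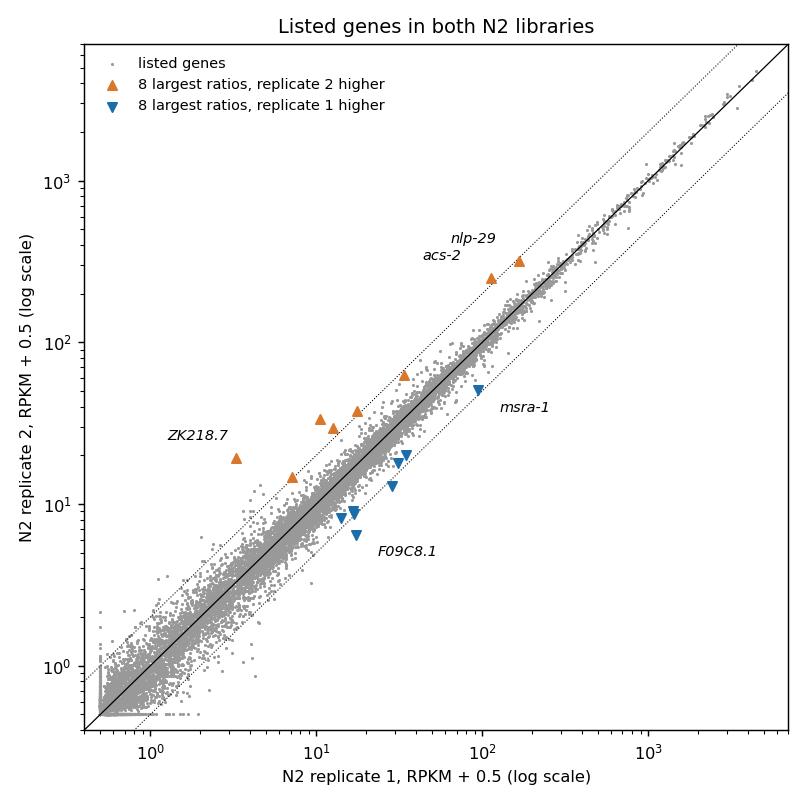
RPKM plus 0.5 in N2 replicate 1 against N2 replicate 2, both on log axes, for every listed gene (grey), with the line of equality (solid) and 2-fold lines (dotted); triangles mark the 8 genes with the largest ratio in each direction among those with a mean of at least 10 RPKM. The cloud narrows upward along the line of equality, and acs-2 is the only point of at least 100 RPKM beyond a 2-fold line.

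The lists were also compared between the libraries by their median log2 ratio. Of 39 lists with at least 10 listed genes and a median of at least 1 RPKM, 32 had a median log2 ratio within 0.1. Cytosolic ribosomal protein genes were at 0.06, body wall muscle genes at 0.09 and oocyte and early embryo genes at 0.19, higher in replicate 2. The V-ATPase and proteasome genes were both at -0.10, the UDP-glucuronosyltransferases at -0.13 and the lysozymes at -0.18, higher in replicate 1. Among the 63 lists other than markers and genes the study names, 8 had a member over 2-fold apart with a mean of at least 1 RPKM, 1 gene in each. Over all 9303 genes compared, 52, or 0.559%, were over 2-fold apart, and the share among list members was not computed. Higher in replicate 1 were the collagen col-36 (3.77 and 0.360 RPKM), the lysozyme ilys-3 (3.10 and 0.556 RPKM), the glucuronosyltransferase ugt-15 (8.74 and 2.74 RPKM), nlp-23 (2.06 and 0.655 RPKM) and fbxa-15 (1.72 and 0.580 RPKM). Higher in replicate 2 were the P450 gene cyp-33A1, acs-2 and srbc-15, a pseudogene of the sr classes.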

How the data were processed

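RNA-seq of N2 L3 larvae was analysed from the RPKM values deposited by the authors. They aligned reads to WS220/ce10 with BWA 0.6.2, assigned them to a lifted-over exon model with HTSeq (union mode), and left out genes that oscillate in larval development. The strand setting and the treatment of reads that fit several places are not given in the sources used here. The table also holds mutant values, means, fold changes and test results of the authors, which were not used as results. Symbols came from RefSeq (15397 of 15568 names matched, 171 did not), and no coordinates were taken from it.

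Reads, totals and exon model lengths were recovered from the RPKM steps, for which all 6 RNA-seq columns of the table served. All genes gave whole reads within 0.002 reads. For genes with few reads a length can be a whole factor too low. The recovery was tested on simulated data. Values were averaged over both libraries and put into classes at 1, 10, 100 and 1000 RPKM, and log2 ratios used a pseudocount of 0.5 and a mean of at least 1 RPKM. No test was made, since there is 1 group of 2 libraries. The members and the 78 gene lists were chosen with earlier results of these data known. Ribosomal protein genes with the newer prefixes rplp and rpsa joined their list after the files were seen. The mitochondrial genome and cpr lists had no listed gene and were not analysed here. Named genes are the 20 highest, the 3 highest and the lowest of each list described (all of a list of up to 10), the 8 with the largest ratio each way at a mean of at least 10 RPKM, the DREAM subunits and the genes of the study. Others (gene pairs, long models, families led by 1 gene, spe-48, members over 2-fold apart, lone pseudogene and ncRNA) were named after their values were seen. Python 3, pandas and numpy were used.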

Additional observations from a re-analysis of the deposited data

How the results depend on the processing

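The scaling set the absolute levels. As TPM over the listed genes, 1575 genes instead of 724 had a mean of at least 100, and the median gene was at 7.37 instead of 3.47. The median was 13.5 RPKM over genes with at least 1 RPKM in both libraries alone. The 100 highest genes held 34.3% of the summed RPKM and 30.2% of the reads. The 52 genes over 2-fold apart became 101 with a pseudocount of 0.1, 29 with 1, 96 without the filter and 8 at a mean of at least 10 RPKM, and the SD of the log2 ratio of 0.25 became 0.28, 0.22, 0.26 and 0.18. The 2290 genes without a read in both libraries became 3427 with up to 1 read allowed in each and 3347 with up to 0.1 RPKM allowed. Leaving out each library in turn gave 2858 to 3084 such genes and a median of 3.39 to 3.45 RPKM. No paired analysis was possible because there is only the N2 group and no test was made. For an exon model of median length, depth limits the genes below about 0.134 RPKM in replicate 1 and 0.162 RPKM in replicate 2. For these, absence cannot be told from a low level, and for shorter models the limit is higher.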
